A study of Homo sapiens with 12 samples.

Results

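Long noncoding RNAs (lncRNAs) were examined in MCF10A, a human breast epithelial line that grows without limit in culture but forms no tumors. The abundant lncRNAs were the genes that the deposited table classes as lncRNA and that were selected on their measured level, a mean over the 12 libraries of at least 5 TPM (a share of transcripts, set per length), as deposited. The rule chose 329 of 16889 lncRNA genes, in a table of 60675 genes. The 6 groups of 2 libraries were 3 genotypes left untreated, namely wild type (WT), IL1RAP-KO and IL1R1-KO, and the same 3 genotypes after 20 Gy of radiation given once, written as the genotype with RT. IL1R1 binds interleukin-1 and IL1RAP is its signaling co-receptor. The knockouts (KO) were pools of cells infected with lentiviral CRISPR guides and selected with puromycin, not clones. Which guide made each KO library, and the time from irradiation to RNA extraction, were not given in the sources used here.

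lncRNAs do not encode known proteins, and they act in the nucleus or cytoplasm or are by-products of transcription at other genes. Some, such as NEAT1 and MALAT1, stay in the nucleus, where NEAT1 is the scaffold of the nuclear bodies called paraspeckles. Others are hosts: small nucleolar RNAs (snoRNAs), which guide the modification of ribosomal RNA, or microRNAs are cut from their introns or exons. Many more lie opposite to, or start beside, a protein-coding gene.

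Levels below are scaled TPM, that is TPM divided by a trimmed mean factor for each library. They are comparable between genes because TPM are set per length. Differences are log2 fold changes of scaled TPM plus 1, with the standard error (SE) of a limma fit over 15303 genes. Calls needed more than a 2-fold change together with an adjusted p (Benjamini-Hochberg) under 0.05, and all 329 members were among the genes tested. Each group had 2 biological replicates by the methods, whose separate origin is not described, so p-values measure only the spread between these samples.

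The libraries differed in ways that touch every comparison of RT. Mitochondrially encoded transcripts took 18.3 to 21.1% of the TPM in untreated libraries and 36.9 to 57.0% after RT, the highest in IL1RAP-KO RT replicate 2. The 2 IL1RAP-KO RT libraries were the least alike of any group (r = 0.972 across genes, against 0.982 to 0.989 in the other groups), and replicate 1 was closer to an IL1R1-KO RT library (r = 0.981). The summed members made up 0.903 to 0.962% of TPM before irradiation and 0.924 to 1.21% after RT. All 8 markers of basal mammary epithelium reached 1 TPM, with sums of 3950 to 4843 TPM untreated and 1783 to 3362 TPM after RT. The 6 leukocyte markers summed to 10.1 to 25.0 TPM untreated and 23.6 to 75.3 TPM after RT, the 6 fibroblast markers to 18.8 to 24.6 and 39.5 to 78.3 TPM, and their part in the results was not tested. IL1RAP mRNA was at 4.40 and 4.96 in IL1RAP-KO and at 17.96 and 20.7 in WT. IL1R1 mRNA was at 11.0 and 7.79 in IL1R1-KO and at 10.6 and 9.44 in WT, so its level does not check that knockout. Fewer cells of a type and less RNA per cell cannot be told apart in these bulk samples.

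The set was dominated by a few RNAs. MALAT1 had the highest mean over the 12 libraries, 1862 TPM as deposited. It was followed by 5 snoRNA hosts (GAS5 812, SNHG29 637, SNHG5 387, SNHG8 363 and ZFAS1 313 TPM), by MIR205HG (266 TPM), the host of a microRNA typical of basal epithelium, and by SNHG6, NEAT1 and DANCR (261, 196 and 178 TPM). These 10 genes held 52.7% of the members' TPM. The median member was at 9.40 TPM, 154 members reached 10 TPM and 13 reached 100 TPM. Just inside the threshold were AL662797.1 (5.04), AC005256.1 (5.02) and AC002401.4 (5.01), and just outside were AGAP2-AS1, AC009283.1 (4.98) and PDXDC2P-NPIPB14P (4.98). In untreated cells 273 members had a mean of at least 5 TPM. The other 56 entered through the RT libraries, so their higher level after RT follows from the rule.

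By position (GENCODE v44, GRCh38, 326 of 329 members matched by gene ID), 221 members overlapped a protein-coding gene and 271 lay within 10 kb of one. A snoRNA gene was annotated inside 30 members, which held 29.9% of the members' TPM, and a microRNA gene inside 27. More than 10% of the exon bases lay opposite exons of another gene in 125 members, and on the same strand as another gene's exons in 31, where reads could be shared. Whether the authors' counting used the strand of the stranded libraries is not given in the sources used here.

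The sequences of 5 mature microRNAs whose hosts are described below are shown because the host is all that was measured: mature microRNAs were not. Capitals mark the seed, bases 2 to 8, which pairs with targets, and the 5 seeds differed. Sequences are from RefSeq (GRCh38.p14).
miR-675-5p (in H19): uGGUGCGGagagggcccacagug
miR-22-3p (in MIR22HG): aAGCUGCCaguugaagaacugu
miR-4435 (in CYTOR and, as a second copy, in MIR4435-2HG): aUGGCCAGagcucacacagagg
miR-205-5p (in MIR205HG): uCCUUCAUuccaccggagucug
miR-34a-5p (in MIR34AHG): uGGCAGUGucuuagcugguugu

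The first question was how the abundant lncRNAs respond to RT in each genotype. After RT, NEAT1, MALAT1, LINC-PINT and MIR22HG were higher and H19, CYTOR, MIR4435-2HG, LINC00707 and SNHG4 were lower in all 3 genotypes. In WT, 52 members were called higher (15.8%), against 7.04% of all genes tested, and 18 lower (5.47%), against 6.17%. In IL1R1-KO, 71 were higher (21.6%, against 8.14% of all genes) and 25 lower (7.60%, against 8.16%). In IL1RAP-KO, 68 were higher (20.7%, against 8.21%) and 32 lower (9.73%, against 9.19%). The median member differed by 0.37, 0.46 and 0.47, where the median of all genes was near 0 (0.0029, 0.012 and 0.0023). Among the 273 members at 5 TPM or more before RT, 27, 41 and 37 were higher (9.89%, 15% and 13.6%) and 18, 25 and 32 lower. Their medians were 0.21, 0.33 and 0.30. These 273 still had to reach a mean of 5 TPM over all 12 libraries. An lncRNA near that level before RT that fell after it could thus be left out, while one that rose stayed in. Less abundant lncRNAs were also called higher: of 1703 other lncRNAs tested, 194, 237 and 246 were higher (11.4%, 13.9% and 14.4%) and 21, 21 and 29 lower. Protein-coding genes were called higher in 6.13%, 6.92% and 6.87%.

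The split depended on the scaling. With TPM as deposited, which moved the median of all genes to -0.21, 0.03 and -0.28, 30 members were higher and 31 lower in WT, 73 and 24 in IL1R1-KO, and 41 and 42 in IL1RAP-KO. Scaled to nuclear protein-coding genes (medians 0.10, 0.40 and 0.33) the numbers were 60 and 16, 138 and 11, and 126 and 19. Without IL1RAP-KO RT replicate 2, 68 members were higher and 32 lower in IL1RAP-KO, of which 61 and 28 were called with it. Changes are given relative to the median of all genes, as the trimmed mean scaling sets it.

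**Figure D1:**
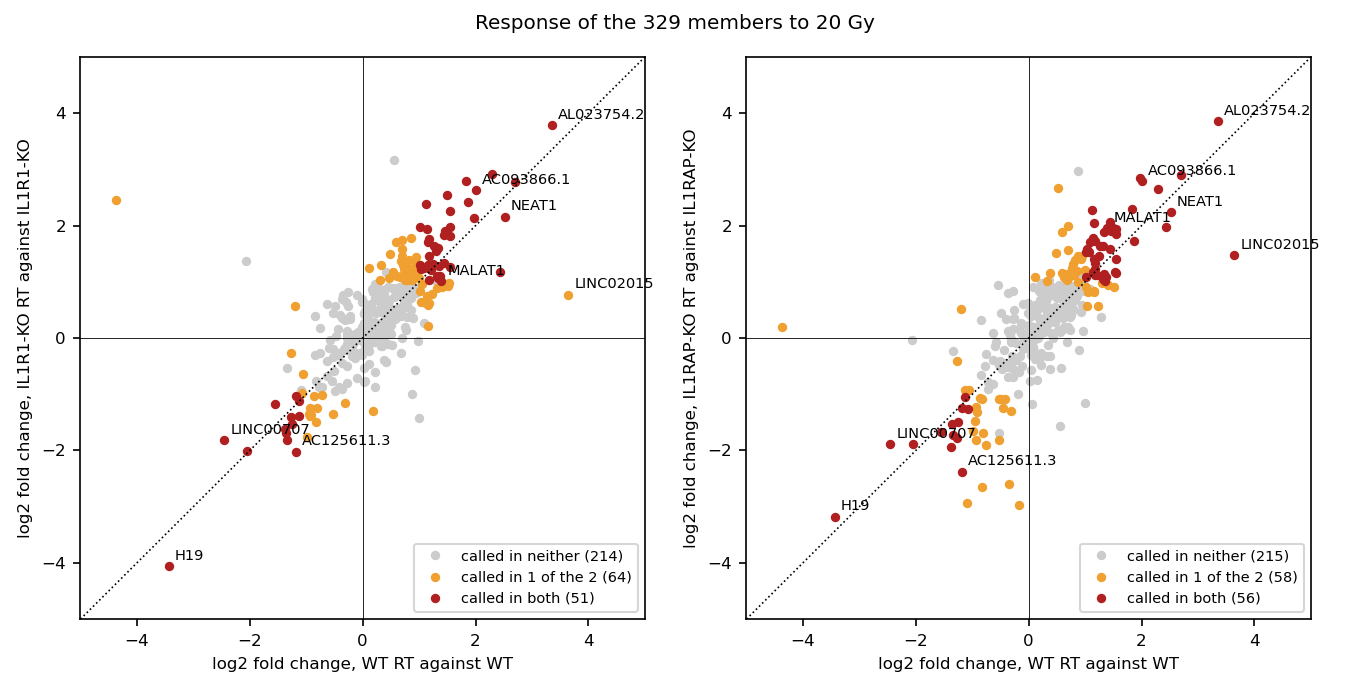
Log2 fold change of each of the 329 members after 20 Gy in WT cells (horizontal) against IL1R1-KO (left) and IL1RAP-KO cells (right), 1 point per member. Red points were called in both comparisons (51 and 56 members), orange points in 1 (64 and 58), and LINC02015 lies far below the dotted line of equal change in both panels.

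Across the 3 genotypes 36 members were called higher in all and 12 lower in all, and none was called in opposite directions. Of the 36, 15 had at least 5 TPM before RT, as did all 12 that were lower. Members under 5 TPM after RT passed the rule through their untreated libraries, so their fall follows in part from the rule. In total 133 members were called in at least 1 genotype, and 195 were called in none of the 9 comparisons.

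NEAT1 (chr11:65422774-65445540, plus strand) was at 65.7 and 70.2 scaled TPM in WT and 420 and 369 in WT RT. It was at 67.4 and 75.4 in IL1R1-KO and 343 and 302 after RT, and at 62.7 and 64.1 in IL1RAP-KO and 324 and 284 after RT. All irradiated libraries were above all untreated ones. The log2 differences were 2.52 ± 0.10, 2.16 ± 0.10 and 2.24 ± 0.10 (SE, adjusted p at most 4.1e-07).

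MALAT1 (chr11:65497640-65508073, plus strand), a nuclear speckle RNA, was at 734 and 862 in WT and 2223 and 1975 in WT RT. It was at 1404 and 1063 in IL1R1-KO and 2261 and 2695 after RT. In IL1RAP-KO it was at 1019 and 1029, and at 3172 and 4990 after RT, the last in the library with the most mitochondrial RNA. The groups did not overlap within any genotype, and the differences were 1.40 ± 0.21, 1.01 ± 0.21 and 1.96 ± 0.21.

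Of 11 members in a list of scaffold and chromatin RNAs, most of them nuclear, 5 were higher (45.5%) and 1 lower (9.09%) in each genotype. Over all genes tested 7.04%, 8.14% and 8.21% were higher and 6.17%, 8.16% and 9.19% lower. The medians of the list were 0.79, 0.90 and 0.91. LINC-PINT, at a mean of 4.86 TPM before RT and so selected through its RT libraries, is a p53-induced RNA that acts with the Polycomb complex. It was at 2.97 and 3.41 in WT and 19.3 and 24.5 in WT RT. Its differences were 2.44 ± 0.23 in WT, 1.18 ± 0.23 in IL1R1-KO and 1.97 ± 0.23 in IL1RAP-KO, and the interaction of IL1R1-KO with RT did not pass (-1.26 ± 0.33, adjusted p = 0.078). NORAD, a cytoplasmic RNA that binds Pumilio proteins, was at 118 to 129 untreated and 162 to 188 after RT, all fold changes under 2. OIP5-AS1 was at 39.4 to 48.5 untreated and 47.3 to 52.2 after RT, without a call.

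H19 (chr11:1995166-2004552, minus strand), an imprinted RNA of growing fetal tissue, showed the largest fall of the 12 members lower in all genotypes. It was at 24.4 and 28.2 in WT and 1.10 and 2.01 in WT RT. IL1R1-KO went from 34.9 and 41.2 to 0.69 and 2.26, and IL1RAP-KO from 31.6 and 28.3 to 2.25 and 2.60. The groups stood far apart, with log2 differences of -3.44 ± 0.28, -4.05 ± 0.28 and -3.18 ± 0.28. H19 was under 5 TPM in every irradiated library, so it passed the rule through its untreated ones. Its fall thus follows in part from the rule.

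The microRNA hosts did not move one way. Of 13 listed members, 1, 3 and 3 were higher and 3, 3 and 3 lower in WT, IL1R1-KO and IL1RAP-KO, or 7.69%, 23.1% and 23.1% higher and 23.1% lower in each. Over all genes tested 7.04%, 8.14% and 8.21% were higher and 6.17%, 8.16% and 9.19% lower, and the lists that follow are set beside these shares. MIR22HG was at 12.8 and 12.3 in WT and 30.8 and 32.1 in WT RT, and its differences were 1.26 ± 0.15, 1.65 ± 0.15 and 1.64 ± 0.15. CYTOR fell from 20.8 and 22.1 to 6.26 and 3.09 in WT, by 2.04 ± 0.26 on the log2 scale, and MIR4435-2HG from 24.9 and 23.4 to 8.01 and 7.07, by 1.56 ± 0.20. These 2 genes come from a duplicated region of chromosome 2: 45.0% of the 75-base words of CYTOR's transcripts are also in those of MIR4435-2HG (22.9% of the latter's), so reads can be split between them and their separate values are uncertain. MIR205HG was at 184 to 253 untreated and 238 to 385 after RT, with no call. MIR34AHG, the host of a p53-induced microRNA, was at 6.75 to 9.13 untreated and 13.9 to 17.6 after RT. It was higher in every irradiated library, yet at 0.82 ± 0.14, 0.94 ± 0.14 and 0.73 ± 0.14 it stayed under the fold threshold.

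**Figure D2:**
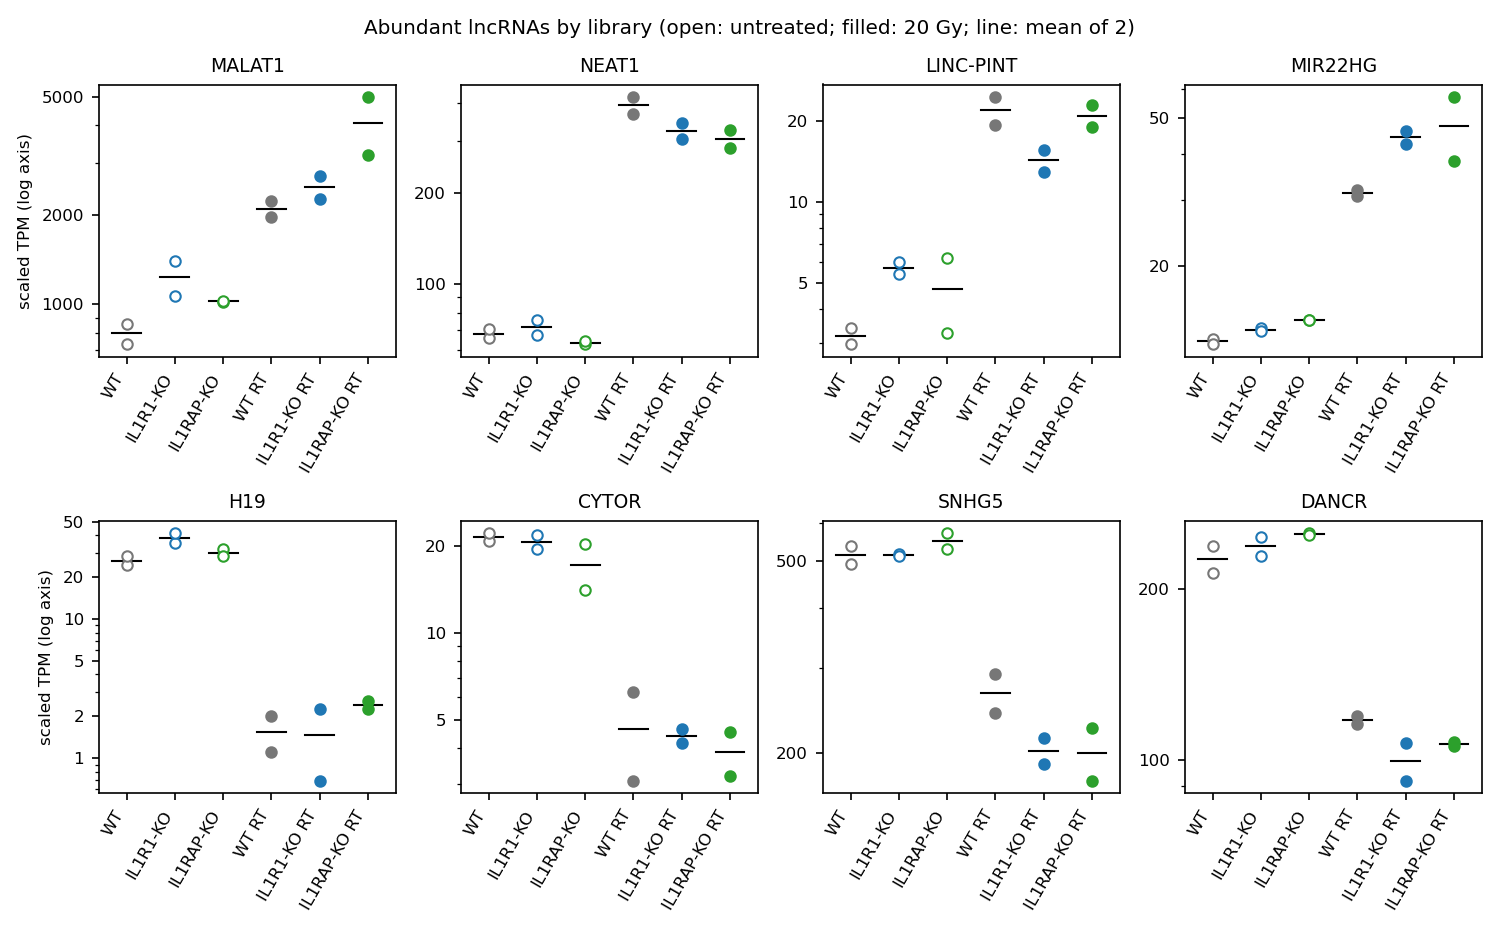
Scaled TPM of 8 abundant lncRNAs on log axes in each of the 12 libraries, with untreated libraries open, irradiated libraries filled and the mean of each pair as a line. In all 8 panels the irradiated libraries of a genotype do not overlap its untreated ones, higher in the upper row and lower in the lower row.

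The 8 members of a list of p53-responsive lncRNAs were called higher in 3, 6 and 4 cases (37.5%, 75% and 50%) and lower in none, with medians of 0.94, 1.29 and 1.153. Beyond NEAT1, LINC-PINT and MIR22HG these were PVT1 (1.146 in IL1R1-KO), TP53TG1 (1.43 in IL1R1-KO) and LINC00963 (1.39 and 1.38 in the KO cells). Of 7 listed inflammation and interferon-responsive members, 5, 4 and 5 were higher (71.4%, 57.1% and 71.4%) and MIR4435-2HG was lower in each. Among them NEAT1 and MIR22HG, both called higher, are also in the p53 list. LINC02015, BISPR and HCP5 were under 5 TPM before RT, so their higher level follows in part from the rule. HCP5, an RNA of the MHC class I region, was at 1.76 and 1.49 in WT and 5.00 and 8.82 in WT RT, and differed by 1.55 ± 0.24, 2.25 ± 0.24 and 1.85 ± 0.24. BISPR, beside the interferon-induced gene BST2, differed by 1.43, 1.83 and 1.58.

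The listed snoRNA hosts had negative medians. Of 28 listed, 3, 1 and 1 were higher and 4, 6 and 9 lower in WT, IL1R1-KO and IL1RAP-KO. Their medians were -0.38, -0.29 and -0.47. Those of the members at 5 TPM or more before RT, a set the rule still shapes, were 0.21, 0.33 and 0.30. The shares called higher were 10.7%, 3.57% and 3.57%, and lower 14.3%, 21.4% and 32.1%. The list holds CYTOR, lower in all 3 genotypes but without an annotated snoRNA. For the 30 members with an annotated snoRNA the medians were -0.27, 0.07 and -0.22. Of these, 5, 2 and 2 were higher (16.7%, 6.67% and 6.67%) and 3, 5 and 8 lower (10%, 16.7% and 26.7%). The differences between these sets were not tested. SNHG4 was at 129 and 128 in WT and 56.5 and 49.4 in WT RT, and fell in all genotypes (-1.27 ± 0.12, -1.41 ± 0.12 and -1.78 ± 0.12). SNHG5 was at 494 and 537 in WT and 291 and 242 in WT RT, a difference of -0.95 ± 0.13 that is under a fold of 2, and fell in both KO lines (-1.35 ± 0.13 and -1.47 ± 0.13). DANCR did likewise (-0.93, -1.25 and -1.22, each ± 0.09).

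A few hosts were higher. SNHG32 was at 109 and 99.3 in WT and 202 and 218 in WT RT (1.01 ± 0.13), and rose in IL1R1-KO (1.29 ± 0.13), with 0.92 ± 0.13 in IL1RAP-KO. GAS5, which is degraded when it is translated and builds up when translation stops, was at 597 to 654 in the untreated libraries and 920 to 1131 in the irradiated ones. Its differences of 0.59, 0.87 and 0.70 (each ± 0.07) had adjusted p-values of at most 0.00013 but folds under 2. SNHG9 was listed at 0 in both IL1RAP-KO RT libraries and at 1.66 to 12.8 elsewhere. It was called lower there, but no fold is given against a group at 0.

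**Figure D3:**
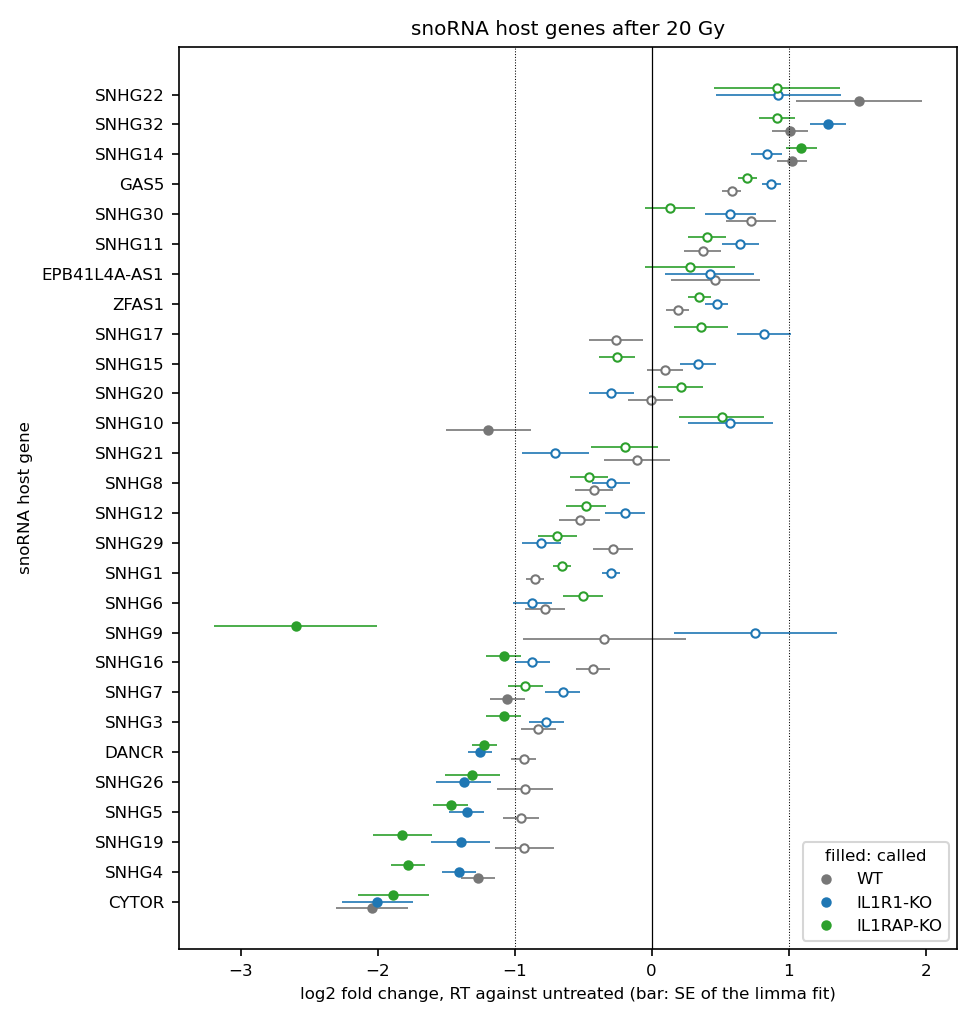
Log2 fold change after 20 Gy of the 28 listed snoRNA host genes (rows) in WT, IL1R1-KO and IL1RAP-KO cells. Bars give the SE of the limma fit and filled points mark calls. CYTOR, which has no annotated snoRNA, and SNHG4 are called lower in all 3 genotypes, and SNHG22, SNHG32 and SNHG14 are called higher in at least 1.

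The proteins that work with these RNAs were counted from fixed lists. None of 18 snoRNP core and assembly proteins was called higher and 4, 6 and 5 (22.2%, 33.3% and 27.8%) were lower, against 7.18%, 9.45% and 10.5% of protein-coding genes, among them fibrillarin (FBL, -1.26, -1.89 and -2.01), the methyltransferase of box C/D snoRNPs, and TCOF1 (-1.57, -1.60 and -1.54). None of 20 paraspeckle proteins was higher and 3, 8 and 6 were lower (15%, 40% and 30%, against the same shares of protein-coding genes). SFPQ, which binds NEAT1, was at 289 and 317 in WT and 152 and 166 in WT RT, with differences of -0.93, -1.50 and -1.06, of which the first is just under a fold of 2. Its interactions with RT were not called (adjusted p = 0.22 and 0.79). RBM3 (-2.17, -2.44 and -3.08) and RBMX (-1.68, -2.12 and -2.07) fell in all 3. Of 20 nuclear exosome proteins, 1, 3 and 2 were lower (5%, 15% and 10%, EXOSC9 in all), near the shares of protein-coding genes. Of 20 nonsense-mediated decay factors none was called, by limma, in either direction, with medians of -0.051, -0.24 and -0.21.

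Among members named for their position, antisense transcripts had shares called higher near those of all members. The shares were larger for LINC names and for divergent transcripts, the latter only 10 genes, and these differences were not tested. Of 74 named antisense transcripts, 13, 19 and 18 were higher (17.6%, 25.7% and 24.3%, where all members gave 15.8%, 21.6% and 20.7%) and 3, 1 and 3 lower, and 18 of them were under 5 TPM before RT. Of 10 named divergent transcripts 3, 5 and 5 were higher (30%, 50% and 50%) and none lower, with 4 of them, OSER1-DT among these, under 5 TPM before RT. OSER1-DT was at 2.40 and 2.35 in WT and 7.86 and 8.80 in WT RT, and rose in all genotypes (1.46, 1.91 and 1.91, each ± 0.13), while its neighbor OSER1, which starts 136 bases away, differed by 0.16, 0.25 and 0.23. GARS1-DT rose (1.55, 1.27 and 1.41, each ± 0.15) and GARS1, the glycyl-tRNA synthetase, differed by -0.49, -0.35 and -0.42 without a call. Of 33 members with LINC names, 8, 10 and 13 were higher (24.2%, 30.3% and 39.4%) and 2, 2 and 2 lower, and 7 were under 5 TPM before RT. LINC00707 was at 16.5 and 15.97 in WT and 1.90 and 2.43 in WT RT, and fell in all genotypes (-2.45, -1.81 and -1.88, each ± 0.21). Under 5 TPM in WT RT, it met the rule through other libraries, so its fall in WT follows in part from the rule.

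Of the 56 members under 5 TPM before RT, whose higher level after RT follows from the rule, 25, 30 and 31 were called higher and none lower. TMEM9B-AS1 was at 0.55 and 1.10 in WT, 7.05 and 8.69 in WT RT, 16.7 and 12.5 in IL1R1-KO RT and 17.8 and 7.83 in IL1RAP-KO RT. LINC01133, an RNA of epithelial cells, differed by 1.83, 2.79 and 2.29. AL023754.2 was at 0 to 3.08 in the untreated libraries, 10.7 and 16.5 in WT RT and 19.7 to 27.8 in the irradiated KO libraries.

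AC093866.1 was at 20.5 and 21.7 in WT and 83.2 and 92.0 in WT RT. It reached 170 and 149 in IL1R1-KO RT and 166 and 195 in IL1RAP-KO RT. Its differences were 2.00, 2.63 and 2.79 (each ± 0.11), with all irradiated libraries above all untreated ones. Of the 151 members opposite an overlapping, tested coding gene, 36, 44 and 43 were called after RT. Both genes of a pair were called in 8, 12 and 16 cases, in the same direction in 4, 8 and 10. Of all protein-coding genes, 6.13%, 6.92% and 6.87% were called higher and 7.18%, 9.45% and 10.5% lower. Whether the paired calls exceed these shares was not tested.

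Members opposite a coding gene were compared with it library by library. At least 50% of the exon bases of 44 members lay opposite other exons within an overlapping coding gene. AC125611.3 (chr12:49265156-49273306, minus strand) lies opposite the tubulin gene TUBA1C with 97.9% of its exon bases. It was at 141 to 163 in untreated libraries, 71.6 and 61.0 in WT RT, 36.1 and 37.4 in IL1R1-KO RT and 31.1 and 28.3 in IL1RAP-KO RT. It fell by 1.18 ± 0.10, 2.02 ± 0.10 and 2.38 ± 0.10, where TUBA1C fell by 1.45, 1.77 and 2.19. The ratio of the RNA to TUBA1C kept between 47.7 and 73.3% in all 12 libraries. AL161665.1, opposite ARHGAP5 and chosen after its values were seen, was at 15.5 to 20.9% of ARHGAP5 in every library. AC006064.4, opposite GAPDH with all its exon bases, was at 0.104 to 0.694% of GAPDH, and AL662797.1 at 1.22 to 4.76% of TUBB. Other pairs varied more: AL139099.1 was at 0 to 318% of MGAT2 and AL136131.3 at 0 to 143% of VEGFA. The median ratio was under 5% in 4 of the 43 pairs with a ratio in every library. The part of reads from the opposite strand in these values was not tested.

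**Figure D4:**
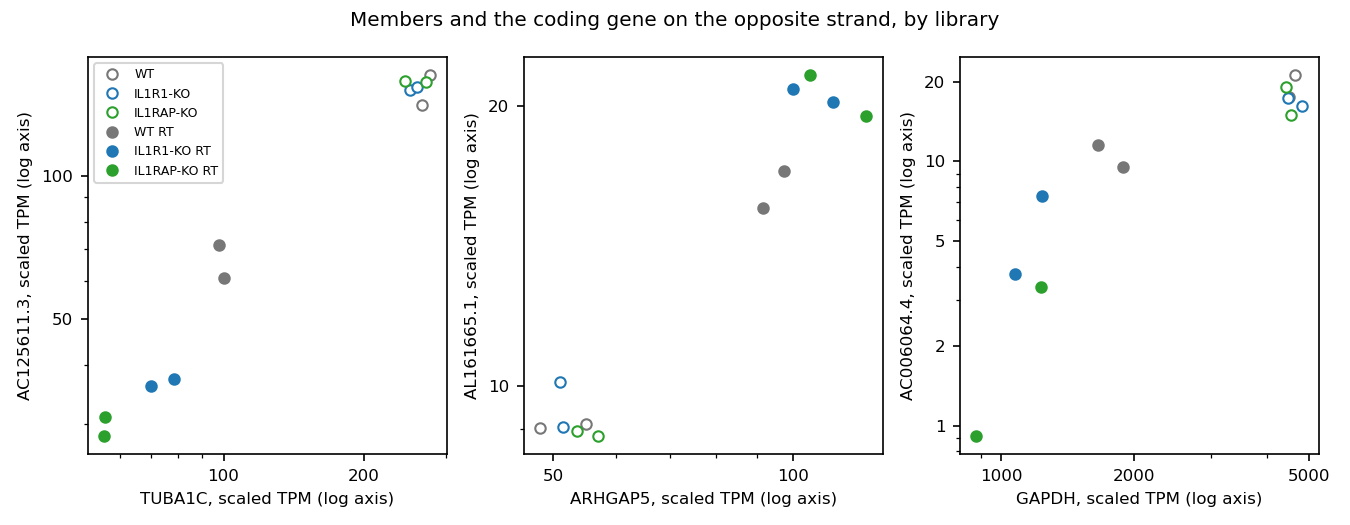
Scaled TPM of 3 members (vertical) against the coding gene on the opposite strand (horizontal), both on log axes, 1 point per library, open when untreated and filled after 20 Gy. AC125611.3 and TUBA1C both fell after RT, AL161665.1 and ARHGAP5 were both higher in all irradiated libraries, and AC006064.4 stayed under 0.694% of GAPDH.

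The second question was whether loss of either receptor chain alters these RNAs. Without RT, 1 member was called. In IL1R1-KO against WT no member was called by limma in either direction (0.0196% of all genes higher and 0.118% lower). At an unadjusted p under 0.05 in limma, 13 of the 329 members were higher and 11 lower, and 370 and 437 of all 15303 genes. In IL1RAP-KO against WT 14 members were higher and 4 lower at that unadjusted p, and 285 and 331 of all genes. No member was called higher (0% of all genes) and LINC02015 was called lower (0.098% of all genes lower). That call was lost in 9 of 10 alternatives.

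After RT, IL1R1-KO differed from WT in 4 members that were higher (1.22%, against 1.18% of all genes) and 1 that was lower (0.304%, against 1.90%). IL1RAP-KO differed in 9 that were higher (2.74%, against 0.83%) and 4 that were lower (1.22%, against 2.06%). These comparisons share the WT RT libraries. IGFL2-AS1, LINC01932 and LNCAROD were higher in both and LINC02015 was lower in both. Of the higher members, 1 in IL1R1-KO and 4 in IL1RAP-KO were under 5 TPM before RT, so they entered through the RT libraries. LINC01932 was among them in each KO line, and AP001372.2 and ZNNT1 in IL1RAP-KO. Among the 273 members at 5 TPM or more before RT, 3 and 5 were higher (1.1% and 1.83%).

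LINC02015 (chr3:177816865-177899224, plus strand) was called lower after RT in each KO line and in each interaction. It passed the rule only through WT RT, the group where it is high, so its excess there is fixed in part by how members were chosen. It was at 1.85 and 1.99 in WT and 32.5 and 38.6 in WT RT. In IL1R1-KO it was at 0.51 and 0.18, and at 1.49 and 1.09 after RT. In IL1RAP-KO it was at 0.11 and 0.23, and at 2.12 and 2.42 after RT. The irradiated KO libraries were thus near the untreated WT level. It rose by 3.64 ± 0.19 in WT and 1.48 ± 0.19 in IL1RAP-KO, and its 0.77 ± 0.19 in IL1R1-KO was under the fold threshold. After RT the KO lines were lower by -4.00 ± 0.19 and -3.48 ± 0.19 (adjusted p = 2e-06 and 7.5e-06). The interactions with RT were -2.87 ± 0.27 (adjusted p = 0.00069) and -2.16 ± 0.27 (adjusted p = 0.0057). With a pseudocount of 0.1 they were -2.40 (adjusted p = 0.067) and -0.98 (adjusted p = 0.41), while the lower level after RT was called in every alternative (-4.69 to -3.77 and -3.91 to -3.26).

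LINC00511 gave the only other call of the IL1R1-KO interaction. It was at 12.2 and 13.7 in WT and 16.7 and 20.3 in WT RT, but rose from 13.99 and 10.9 to 38.5 and 35.1 in IL1R1-KO. The interaction was 1.03 ± 0.22 (adjusted p = 0.042) and lost its call in 9 of 14 alternatives (adjusted p up to 0.17). In IL1RAP-KO it was also 1.03 ± 0.22, with an adjusted p of 0.057. In all, 1 member was higher and 1 lower in the IL1R1-KO interaction (0.516% and 0.928% of all genes). None was higher and 2 were lower in that of IL1RAP-KO (0.157% and 0.66%). At an unadjusted p under 0.05 in limma, 43 members were higher and 21 lower for IL1R1-KO (1103 and 1495 of all 15303 genes). For IL1RAP-KO they were 40 and 24 (1119 and 1548 of all genes).

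IGFL2-AS1 was at 7.15 and 7.64 in WT and 13.2 and 19.4 in WT RT, against 39.3 and 32.5 in IL1R1-KO RT and 31.9 and 35.3 in IL1RAP-KO RT. It was higher after RT by 1.11 ± 0.19 and 1.02 ± 0.19 in the KO lines, and by 0.85 and 0.76 without WT RT replicate 1. LINC01932 was under 5 TPM before RT and a member through its RT libraries, so its excess in the KO lines follows in part from the rule. It was at 8.74 and 9.83 in WT RT, 23.5 and 23.03 in IL1R1-KO RT and 13.8 and 29.1 in IL1RAP-KO RT, and was higher by 1.24 ± 0.26 and 1.04 ± 0.26. Without IL1RAP-KO RT replicate 2 the latter was 0.52 (adjusted p = 0.086), and without WT RT replicate 1 the values were 1.16 (adjusted p = 0.11) and 0.96 (adjusted p = 0.16). LNCAROD, an RNA that supports transcription of DKK1, was at 1.51 and 3.04 in WT RT, below every other group (4.18 to 7.55). It was higher by 1.28 ± 0.24 and 1.39 ± 0.24, and without WT RT replicate 1 by 0.94 (adjusted p = 0.067) and 1.05 (adjusted p = 0.056). No interaction of these 3 RNAs passed (adjusted p = 0.095 to 0.36).

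**Figure D5:**
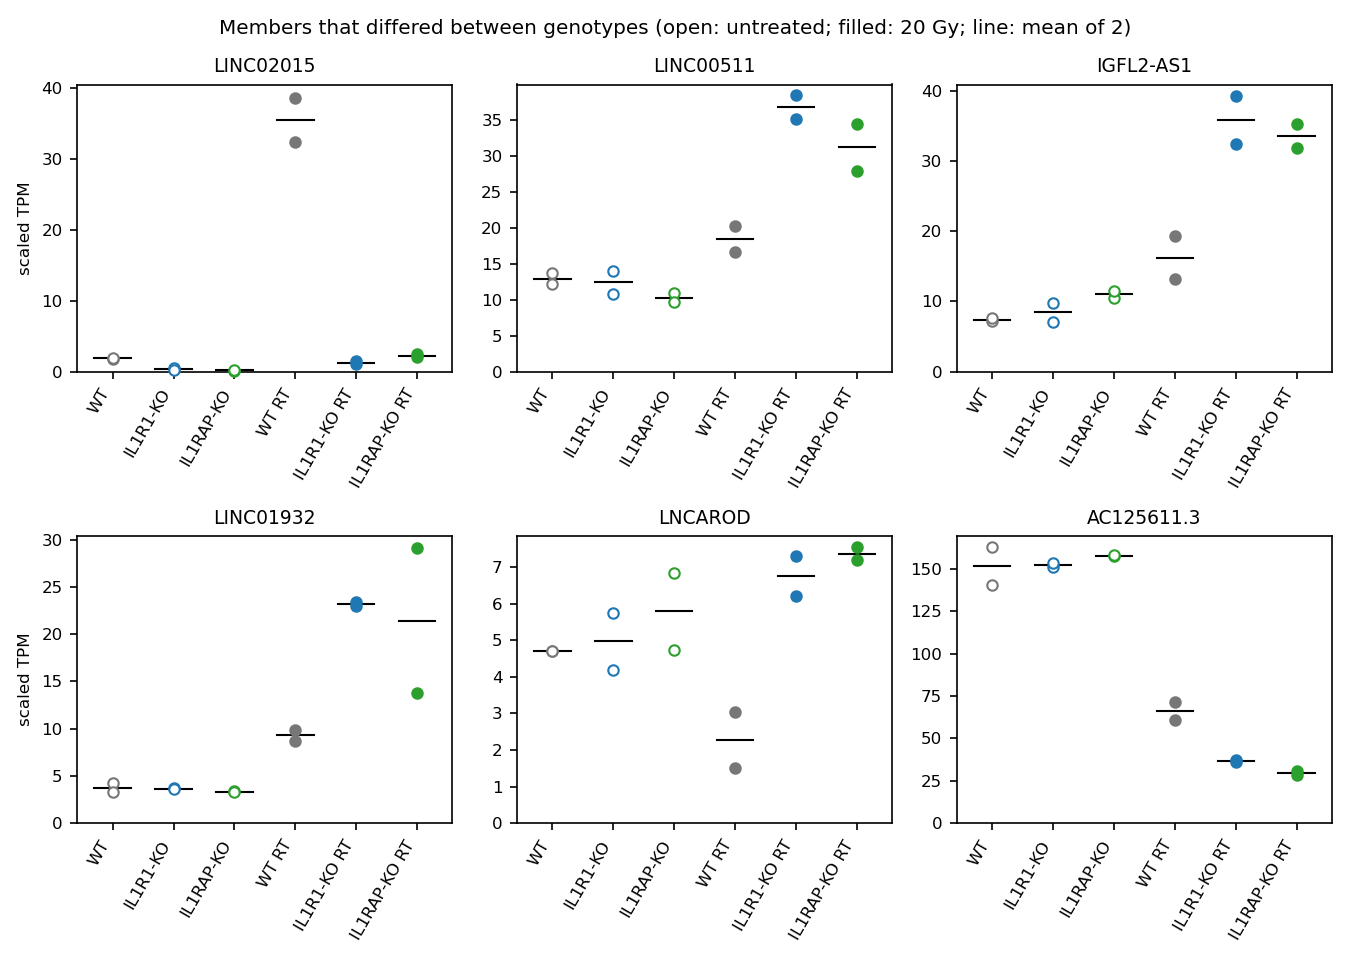
Scaled TPM, on linear axes from 0, of 6 members that differed between genotypes, in each of the 12 libraries, with lines for the mean of each pair. WT RT holds the highest levels of LINC02015 (32.5 and 38.6) and the lowest of LNCAROD (1.51 and 3.04).

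In IL1RAP-KO RT but not in IL1R1-KO RT, AC093866.1, AC023043.1, BAALC-AS1, ZNNT1, AP001372.2 and AL136131.3 were also called higher than in WT RT. AC125611.3, AC006064.4 and SNHG9 were called lower there. A missing call is not an equal level: IL1R1-KO RT was also above WT RT for AC093866.1 and below it for AC125611.3. AC125611.3 was lower in IL1RAP-KO RT by -1.13 ± 0.10, and its IL1RAP-KO interaction with RT was called (-1.19 ± 0.14, adjusted p = 0.0040). In IL1R1-KO it differed by -2.02 after RT, against -1.18 in WT, without a called interaction. AL136131.3, opposite VEGFA with all its exon bases, was at 0 and 0.34 in WT RT and 40.4 and 25.8 in IL1RAP-KO RT, but also at 38.3 and 13.6 in WT and 0 in both IL1R1-KO libraries. Its replicates in IL1R1-KO RT were at 0 and 28.9, so the libraries of a group were far apart, and its IL1RAP-KO call (4.85, adjusted p = 0.033) was lost when any 1 of the 4 libraries compared was left out. In IL1R1-KO RT, AC093673.1, which starts beside ZYX, was higher than in WT RT by 1.02 ± 0.23.

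Of 8 promoters taken by fold change from the members called in KO cells after RT or in all comparisons of RT, 3 held a match to a motif searched, and LNCAROD, AC023043.1, TMEM9B-AS1, LINC01133 and H19 held none. The 3 and that of H19 are shown, 250 bases before to 50 after the RefSeq start. Of the members, 183 matched an entry among 27305 promoters. Capitals mark matches, on either strand, to the AP-1 site TGANTCA or to the p53 decamer site. None of the matches shown overlaps another.
LINC02015 (chr3:177816615-177816914, plus strand, GRCh38.p14): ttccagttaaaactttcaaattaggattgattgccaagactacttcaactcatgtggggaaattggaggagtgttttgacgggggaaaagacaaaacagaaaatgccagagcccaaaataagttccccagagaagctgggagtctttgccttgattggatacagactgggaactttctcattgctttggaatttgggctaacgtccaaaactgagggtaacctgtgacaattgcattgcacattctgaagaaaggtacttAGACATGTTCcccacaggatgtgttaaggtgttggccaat
LINC01932 (chr5:159227465-159227764, plus strand): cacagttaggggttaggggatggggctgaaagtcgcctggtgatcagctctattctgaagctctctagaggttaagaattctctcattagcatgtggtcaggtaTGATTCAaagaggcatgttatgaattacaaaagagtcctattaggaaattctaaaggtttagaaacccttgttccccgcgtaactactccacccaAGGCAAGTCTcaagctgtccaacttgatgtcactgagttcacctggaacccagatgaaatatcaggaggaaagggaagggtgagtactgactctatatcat
CYTOR (chr2:87455177-87455476, plus strand): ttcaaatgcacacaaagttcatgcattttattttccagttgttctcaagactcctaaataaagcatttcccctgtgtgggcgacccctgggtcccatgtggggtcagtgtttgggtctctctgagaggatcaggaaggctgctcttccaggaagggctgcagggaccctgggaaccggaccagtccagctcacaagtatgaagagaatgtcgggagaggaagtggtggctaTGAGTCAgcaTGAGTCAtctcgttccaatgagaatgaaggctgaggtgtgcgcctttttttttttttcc
H19 (chr11:2001217-2001516, minus strand): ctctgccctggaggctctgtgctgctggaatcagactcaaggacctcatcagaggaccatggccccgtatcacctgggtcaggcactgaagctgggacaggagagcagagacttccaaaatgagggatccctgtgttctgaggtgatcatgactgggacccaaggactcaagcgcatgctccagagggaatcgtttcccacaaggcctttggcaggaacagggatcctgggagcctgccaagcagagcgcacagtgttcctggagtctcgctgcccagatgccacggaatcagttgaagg

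The LINC02015 window holds 1 p53 decamer site and no match to the NF-kB site. LINC01932 holds 1 AP-1 site and 1 p53 decamer site, CYTOR 2 AP-1 sites, and H19 none of the motifs searched. The p53 decamer site was in 13 of the 183 member promoters (7.10%) and in 6.54% of all, the AP-1 site in 14 (7.65%, against 7.76%) and the NF-kB site in 20 (10.9%, against 10.8%). The TATA box TATAAA was in 11 (6.01%, against 11.95%) and the interferon-stimulated response element in 5 (2.73%, against 3.65%). A match describes these letters only.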

How the data were processed

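RNA of 12 libraries was measured, 2 in each of 6 groups. After removal of ribosomal RNA, stranded libraries of total RNA were sequenced as 75-base pairs. Per the labels and the paper's methods, the authors used cutadapt 1.15 for trimming and STAR 2.5.3a for alignment (GRCh38), counted reads per gene with HTSeq and compared groups with DESeq2. The authors deposited TPM, in steps of 0.01. Each of the 12 single-library tables held the same values as its column of the table of all libraries. Depth cannot be read from TPM and is unknown, so counting intervals are not given.

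A linear model replaced a count model because the unit is TPM. Genes with at least 1 TPM in at least 2 libraries were kept. TPM were divided by unweighted trimmed mean factors (trimming 30% of M values and 5% of A values per end). They were taken as log2 with a pseudocount of 1 (which understates changes of low genes). The model was fitted in limma 3.58.1 (R 4.3.3), with 6 group means and a variance trend. The fit was tested on simulated data. The 9 comparisons were RT in each genotype, each KO against WT without and with RT, and the 2 interactions, all over 15303 genes. The members and lists were chosen with earlier results of these data known. Members named in the text were the 10 with the highest mean, up to 6 called higher and 6 lower with the largest fold changes and no overlap in each comparison of groups, those called in an interaction, up to 4 called and 2 others of each list, and the 3 on each side of the threshold. The neighbors within 10 kb and up to 3 called and 2 others of each protein list were added, and 1 neighboring gene is not reported here. TP53TG1, LINC00963, BISPR, AP001372.2, SNHG14, SNHG22 and AL161665.1 were chosen after their values were seen. Same-numbered libraries did not deviate together (correlations of -0.061 to 0.095 over 15 pairs of groups), so the replicate number was a block only in an alternative. Alternatives were other scalings, a pseudocount of 0.1, no filter, the compared libraries alone, each replicate left out, and other rules for members.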

Additional observations from a re-analysis of the deposited data

Results flagged for a closer look

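A test of the difference in the response to RT between genotypes gave 4 calls. The log2 response of LINC02015 was lower than in WT by -2.87 in IL1R1-KO (adjusted p = 0.00069 in limma) and by -2.16 in IL1RAP-KO (adjusted p = 0.0057), with all 4 irradiated KO libraries below both WT RT libraries. With a pseudocount of 0.1 both lost their call (-2.40, adjusted p = 0.067, and -0.98, adjusted p = 0.41), and LINC02015 was a member only through WT RT. That of LINC00511 was higher in IL1R1-KO by 1.03 (adjusted p = 0.042) and lost its call in 9 of 14 alternatives. That of AC125611.3 was lower in IL1RAP-KO by -1.19 (adjusted p = 0.0040), and TUBA1C, opposite to it, had an interaction of -0.74 (adjusted p = 0.014), under a fold of 2. With 2 libraries a group, single outlying values were not tested.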

How the results depend on the processing

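Counts of called members varied with the scaling. With TPM as deposited, 30 were higher and 31 lower after RT in WT (52 and 18 as reported) and 41 higher in IL1RAP-KO (68 as reported). After RT, 20 were higher in IL1R1-KO than in WT and 1 in IL1RAP-KO, and 6 higher in the IL1R1-KO interaction. Scaled to nuclear protein-coding genes, 138 and 11 were higher and lower after RT in IL1R1-KO, 126 and 19 in IL1RAP-KO, 33 and 21 higher in the KO lines than in WT after RT, 24 and 5 higher and, for IL1RAP-KO, 1 lower in the interactions. The single lower call in untreated IL1RAP-KO went to 0 with either of these scalings, without the filter, with the replicate block and with the compared libraries alone. Without the filter, 5 were higher in IL1RAP-KO RT than in WT RT and 0 in the IL1R1-KO interaction. With a pseudocount of 0.1, 2 were lower in IL1R1-KO RT than in WT RT, and 0 and 1 lower in the interactions. With the compared libraries alone, 1 was higher in either KO after RT and 2 lower in IL1RAP-KO RT, with 3 and 1 higher in the interactions and 2 lower in that of IL1R1-KO. The replicate block moved other counts by at most 1 member, but the higher call in the IL1R1-KO interaction passed from LINC00511 (adjusted p = 0.059) to another member. A mean of at least 5 TPM in every group left 195 members. The cause was not tested.

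Leaving out 1 replicate moved the members higher in IL1R1-KO RT against WT RT from 1 (without WT RT replicate 1) to 13 (without WT RT replicate 2) and lower from 1 to 5 (without IL1R1-KO RT replicate 1). For IL1RAP-KO RT against WT RT they were 2 (without its replicate 2) to 13 higher and 2 to 14 (without its replicate 1) lower. The interactions gave 0 to 6 higher and 1 to 2 lower for IL1R1-KO, and 0 to 5 higher and 2 to 11 lower for IL1RAP-KO. The lower call in untreated IL1RAP-KO was 0 in all 4. Of 2210 values for named members under alternatives, 1969 stayed on the same side of the threshold, 122 lost a call, 117 gained one and 2 reversed: AL136131.3 in IL1R1-KO RT against WT RT (-0.21 without IL1R1-KO RT replicate 2 and 4.69 without its replicate 1) and TMEM9B-AS1 in IL1RAP-KO RT against WT RT (-0.0004 without IL1RAP-KO RT replicate 1 and 1.09 without its replicate 2).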
